A study of Mus musculus with 2 samples.

Results

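The miR-101 genes of the mouse, Mir101a and Mir101b, were read in microRNA sequencing libraries from embryonic forebrain. They were taken by Ensembl identifier from the GENCODE M21 annotation, ENSMUSG00000065451.1 for Mir101a and ENSMUSG00000065556.1 for Mir101b, and are 2 of the 1973 genes in each count table. The pair was chosen by name with earlier results of these data known, among them the level of each gene and its ratio between the libraries. Those values are therefore given as a description, with no test. All samples belonged to 1 group, forebrain tissue of healthy B6NCrl embryos at day 12.5, with males and females mixed, no treatment and no altered allele stated in the labels. Replicate 1 was a pool of 120 embryos and replicate 2 a pool of 68 embryos, both from RNA under 30 nt. Each pool gave 1 library, so differences between embryos, dissections and library preparations cannot be told apart. In such bulk tissue, fewer cells of a type and less RNA per cell cannot be told apart either.

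A microRNA (miRNA) is cut from a hairpin precursor, and 1 arm or both can be loaded onto an Argonaute protein. Bases 2 to 8 of the loaded strand, the seed, pair with sites that lie mostly in the 3′ untranslated regions (UTRs) of messenger RNAs and lower their output. The best known target of miR-101 is Ezh2, described first in human cancer cells. Ezh2 is the methyltransferase of Polycomb repressive complex 2, which in the embryonic forebrain holds the balance between dividing progenitors and neurons. In the young mouse hippocampus miR-101 has also been tied to the chloride importer gene Slc12a2 and to limits on network activity.

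The mature products are shown first because the genes are told apart by very few bases. The sequences are those of RefSeq on GRCm38.p6, 5′ to 3′, and capitals mark bases 2 to 8.
mmu-miR-101a-3p: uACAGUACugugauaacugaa
mmu-miR-101b-3p: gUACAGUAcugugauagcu
mmu-miR-101c: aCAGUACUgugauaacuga
mmu-miR-101a-5p: uCAGUUAUcacagugcugaugc
mmu-miR-101b-5p: uCGGUUAUcaugguaccgaugcu

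The annotated 3p product of Mir101b starts 1 base earlier than that of Mir101a, so the annotated seeds, ACAGUAC and UACAGUA, are the same letters shifted by 1 position. As annotated, none of the 5 products shared bases 2 to 8 with another mature mouse miRNA in the table. The 3p products have a stretch of 15 bases in common. Over the 21 bases of miR-101a-3p, the Mir101b hairpin differed at 1 base, A16G, counted from the 5′ end of miR-101a-3p. The 5p products differed at 5 of 22 bases, A3G, C11U, A12G, G15A and U17C, counted from the 5′ end of miR-101a-5p. All 19 bases of miR-101c, from a locus on chromosome 9, are bases 2 to 20 of miR-101a-3p. Mir101c had no row in the tables, so its level was not analysed here.

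The hairpins are printed whole, with the 5p and 3p products in capitals, to show where the counted reads come from.
Mir101a: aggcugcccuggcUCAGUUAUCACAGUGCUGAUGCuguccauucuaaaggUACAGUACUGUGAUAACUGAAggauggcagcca
Mir101b: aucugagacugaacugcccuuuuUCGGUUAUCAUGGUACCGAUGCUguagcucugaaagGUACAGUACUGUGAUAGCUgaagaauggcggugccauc

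Mir101a covers 83 bases of the minus strand at chr4:101346945-101347027 (mm10) and lies in an exon of the non-coding gene E130102H24Rik, on the same strand. Mir101b covers 97 bases of the plus strand at chr19:29135279-29135375, inside an intron of Rcl1, a gene of ribosomal RNA processing, on the same strand. Neither had another gene of the count tables within 50 kb, so each is a lone miRNA gene here and not a member of a cluster. The predicted fold of Mir101a was the tighter one at -47 kcal/mol, or -0.566 kcal/mol per base, and 43 of 510 hairpins, those of genes with 10 or more reads in all, had a lower energy per base. Mir101b had a predicted fold of -39.6 kcal/mol, or -0.408 kcal/mol per base, and 336 of the 510 hairpins were lower. The median over those hairpins was -0.433 kcal/mol per base.

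The longest stretch the 2 hairpins share is 20 bases, aaagguacaguacugugaua, which runs from the loop into the 3p product and ends just before the differing base. A read that starts at base 1 of miR-101a-3p is found in the Mir101b hairpin at a length of 15 bases and in no other M21 hairpin from 16 to 25 bases. A read that starts at base 1 of miR-101b-3p is found in the Mir101a hairpin at 15 and 16 bases and in no other hairpin from 17 to 25 bases. A full-length 3p read therefore separates the genes by 1 base in exact matching. How many mismatches the alignment allowed is not given in the sources used here. Multiply matching reads were kept out of the gene counts. They made up 46.0% of mapped reads in replicate 1 and 45.5% in replicate 2. The part of them that came from miR-101 cannot be read from the tables. The longest stretch of the Mir101c hairpin shared with Mir101a is 19 bases, and with Mir101b 14 bases. Reads left out for matching several places may therefore not fall equally on the 2 genes, which was not tested. The counts also join both arms of a hairpin, so 5p and 3p reads cannot be separated.

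Both libraries were of like depth, with 4333194 reads on the gene strand in replicate 1 and 4397107 in replicate 2. The unit of level is counts per 1000000 such reads (CPM), and 3 counts, the limit for a gene without reads, correspond to 0.692 and 0.682 CPM. As a check of the forebrain label, Mir92b and Mir137, miRNAs of neural progenitors and neurons, stood at 19620 ± 283.3 and 5207 ± 112.5 CPM (SD, n = 2). Of the other neural genes listed, Mir9-3 stood at 713 CPM, Mir9-2 at 5.61 CPM and the 3 Mir124a genes at 1.95 to 6.29 CPM, and Mir9-1 had no row. The median of the 7 with a row was 6.29 CPM, and the multi-copy genes among them are uncertain in level.

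Mir101b was the higher of the 2 genes in counted reads. Its counts were 8918 reads in replicate 1 and 8600 in replicate 2. These correspond to 2058 CPM, with a 95% exact Poisson interval of 2016 to 2101, and 1956 CPM, with an interval of 1915 to 1998. The pools were close, and the mean was 2007 ± 72.3 CPM (SD, n = 2), place 76 of 1973 genes. The counts of Mir101a were 2576 reads in replicate 1 and 1388 in replicate 2. These correspond to 594 CPM (572 to 618) and 316 CPM (299 to 333). The replicate 1 library was the higher one by far more than counting error, and the mean was 455 ± 197 CPM, place 144 of the 1973 genes. In single libraries Mir101b held places 75 and 76, while Mir101a held place 131 in replicate 1 and 163 in replicate 2. Neither gene had a read on the opposite strand. No molecular identifiers are stated, so PCR copies count as reads and the intervals reflect counting error alone.

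Together the genes held 0.265% of assigned reads in replicate 1 and 0.227% in replicate 2. Mir101b gave 77.6% of the miR-101 reads in replicate 1, with a 95% Clopper-Pearson interval of 76.8% to 78.3%, and 86.1% in replicate 2, with an interval of 85.4% to 86.8%. It thus stood 3.46 times as high as Mir101a in the first pool and 6.20 times as high in the second. Mir101b led in both libraries, and the ranges of the 2 genes did not overlap.

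**Figure D1:**
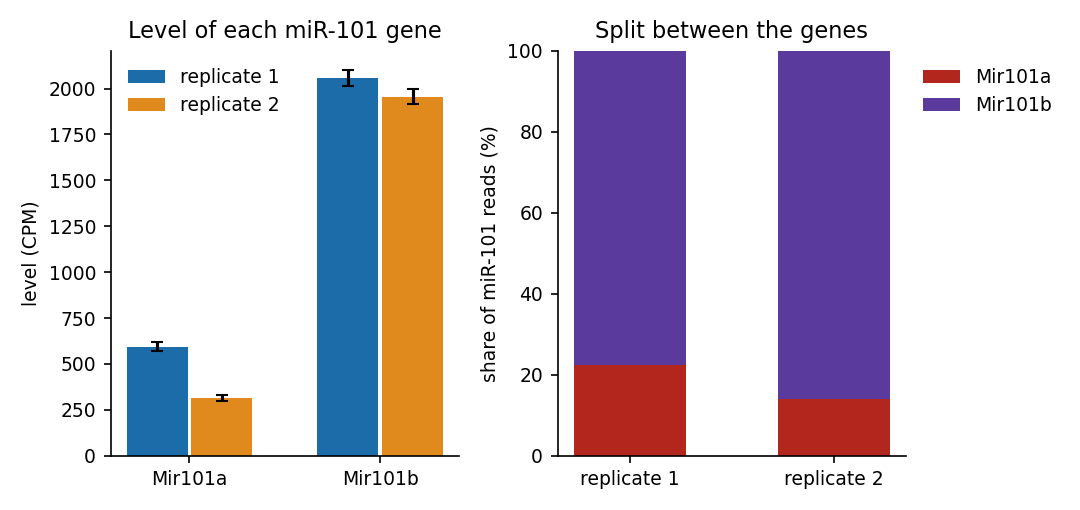
Left, level of Mir101a and Mir101b in counts per 1000000 assigned reads (CPM), 1 bar for each replicate pool, with 95% exact Poisson intervals. Right, split of the miR-101 reads between the genes in percent. In replicates 1 and 2, Mir101b has 2058 and 1956 CPM, while Mir101a has 594 and 316 CPM.

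In the order of mean levels, Mir101b stood between Mir98 at 2101 ± 181 CPM and Mir323 at 1938 ± 196 CPM (SD, n = 2 each). The next places were held by Mir203 and Mir15b above, and by Mir337 and Mir532 below. Of these 6 neighbours, 4 overlapped with Mir101b in their range over the 2 libraries, and Mir15b and Mir532 did not. The same 4 were the only genes whose range overlapped with that of Mir101b. Mir101a stood between Mir485 at 460 ± 38.0 CPM and Mir760 at 443 ± 21.4 CPM, with Mir1298 and Mir542 above and Mir3071 and Mir1306 below. All 6 overlapped with it, and so did 38 genes in all, since its own range was wide. Its place in the order is accordingly less well fixed than that of Mir101b.

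**Figure D2:**
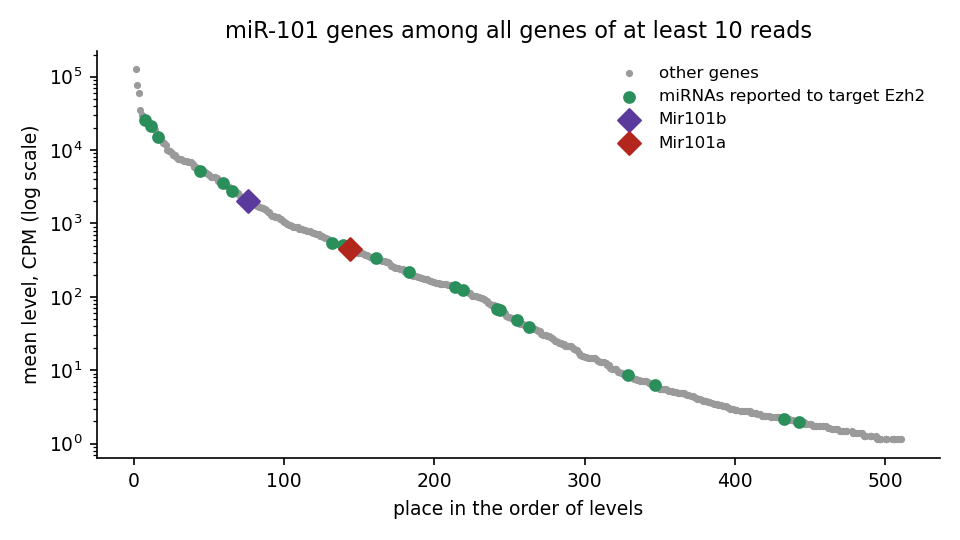
Mean level in CPM (log scale) against place in the order of levels, 1 point for each gene whose reads in the 2 libraries add up to 10 or more. Diamonds mark Mir101b at place 76 and Mir101a at place 144, and green points the miRNAs reported to target Ezh2, of which 7 lie above Mir101b by mean level.

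The log2 ratio of replicate 1 to replicate 2 was 0.91 for Mir101a, with a counting interval of 0.82 to 1.01, or 1.88-fold (1.76 to 2.01). For Mir101b it was 0.07, with an interval of 0.03 to 0.12, or 1.05-fold (1.02 to 1.08). The ratio of Mir101a exceeded that of Mir101b by 0.84 on the log2 scale, with an exact counting interval of 0.74 to 0.94. That interval leaves out spread between pools. This difference rests on reads of the same 2 libraries and so does not depend on how they were scaled. Neither gene was 2-fold apart between the libraries, as were 8.81% of the 511 genes whose reads in the 2 libraries add up to 10 or more. Of the 229 genes of at least 100 CPM, 2 were 2-fold apart. Within 2-fold of the mean level of Mir101a 1 of 73 other genes was, and within 2-fold of that of Mir101b 0 of 45. Mir101a was just inside the 2-fold limit. The nearest genes of at least 10 CPM inside it were Mir6240 at -0.996, Mir219a-2 at -0.98 and Mir1264 at -0.94. Those nearest outside it were Mir6236 at -1.34, Gm23935 at -1.62 and Mir200a at 1.79. All 6 were picked out with their values in view. Mir200a was also on the list of epithelial miRNAs given below, itself chosen with earlier results of these data known.

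Over the 511 genes the median absolute log2 ratio was 0.21, and 55 genes had a larger one than Mir101a. Among the 229 genes of at least 100 CPM, 3 had a larger absolute ratio than Mir101a, and they were Mir200a, Gm23935 and Mir219a-2. Of the 73 other genes within 2-fold of the mean level of Mir101a, 1 had a larger absolute ratio, Mir200a, and the median absolute log2 ratio of the 73 was 0.11. Of the 45 other genes within 2-fold of Mir101b, 29 had a larger absolute ratio than it, and the median was 0.12. Mir101a was thus near the edge of the genes of its level, and Mir101b in their middle.

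**Figure D3:**
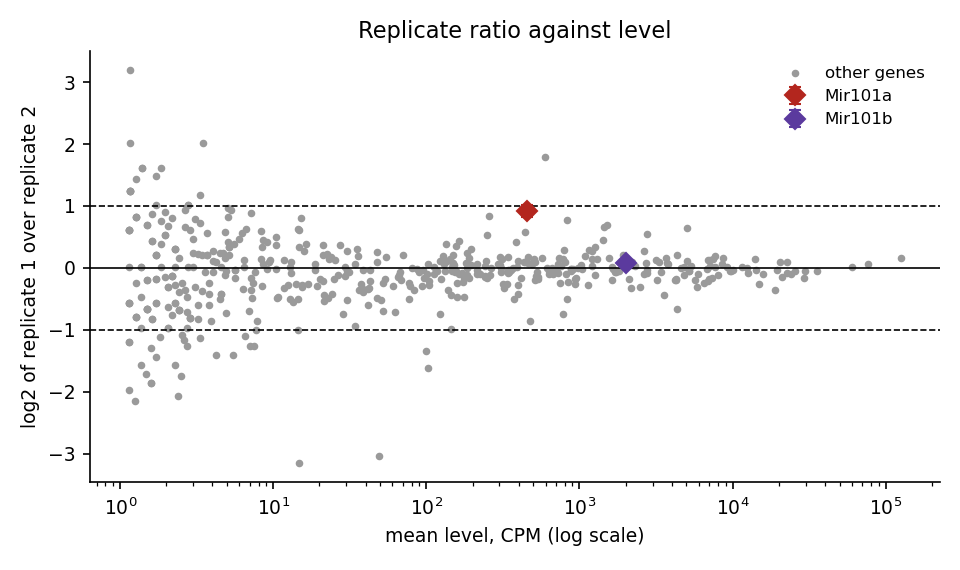
Log2 of replicate 1 over replicate 2 against mean level in CPM (log scale) for the 511 genes of 10 or more reads in all. Dashed lines mark 2-fold, bars on the diamonds are counting intervals, and Mir101a at 0.91 stands apart from most genes of its level while Mir101b lies at 0.07.

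**Figure D4:**
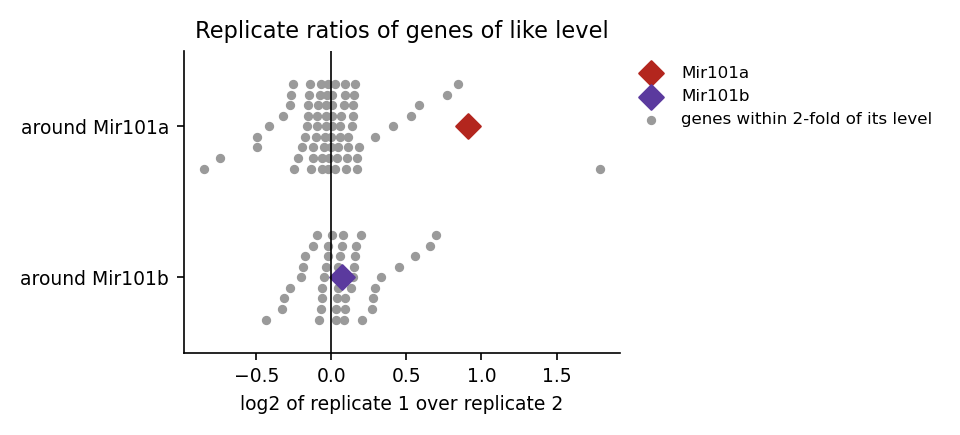
Log2 of replicate 1 over replicate 2 for genes within 2-fold of the mean level of Mir101a (upper row, 73 genes) and of Mir101b (lower row, 45 genes), spread vertically for legibility. In the upper row 1 gene, Mir200a at 1.79, lies beyond Mir101a.

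Other values that differed between the pools stand beside that of Mir101a. The epithelial list of 7 miRNAs summed to 13628 CPM in the first pool and 10008 CPM in the second, and its 5 miR-200 genes had log2 ratios of 0.65 to 1.79. The other 2 members, Mir203 and Mir205, lay the other way at -0.33 and -0.50. The mesenchymal and mural list summed to 12983 and 15695 CPM, the endothelial Mir126a to 16564 and 21180 CPM, and the leukocyte Mir223 to 132 and 183 CPM, while Mir142 had no row. The erythroid pair Mir451a and Mir144 summed to 318 and 238 CPM, with log2 ratios of opposite sign, 0.53 for Mir451a and -0.52 for Mir144. No list stood at 0 reads, and the neural list summed to 25276 and 25837 CPM. The part of these cell types in the ratio of Mir101a was not tested. Shared sequence is a further value to set beside it. Of the genes of at least 100 CPM, 49 share at least 20 bases with another M21 hairpin. Both miR-101 genes are only just among them, since their longest shared stretch is exactly 20 bases. Of the 49, 3 were at least as far apart as Mir101a, itself included. Of the 180 without such a stretch, 1 was. The median absolute log2 ratios were 0.12 and 0.11. Over the 510 hairpins whose folds are given above, with no limit of 100 CPM, the order was reversed. There 9 of 110 genes with such a stretch, Mir101a included, and 46 of 400 without were at least as far apart. Their medians were 0.20 and 0.22. The part of shared sequence in the ratio was not tested.

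The genes most like each member over the 2 samples were found by the distance in mean log2 CPM and in log2 ratio together, among the 510 other genes of at least 10 reads. For Mir101b these were Mir337, Mir532 and Mir1193, at distances of 0.06, 0.07 and 0.08. In replicates 1 and 2 Mir337 stood at 1961 and 1885 CPM. For Mir101a the nearest was Mir3071, at a distance of 0.33, with 528 and 353 CPM in replicates 1 and 2. Mir375 and Mir485 followed at 0.53 and 0.75, so no gene matched Mir101a as closely as 3 genes matched Mir101b. Since the distance includes the log2 ratio, this in part restates the ratio of Mir101a given above.

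By seed, the closest relatives in the tables were Mir144 and Mir582, each with bases 2 to 7 of 1 annotated miR-101 3p product. Mir144, an erythroid miRNA, has those of miR-101a-3p in common and differs at base 8. Its mature sequence is printed, again with bases 2 to 8 in capitals.
mmu-miR-144-3p: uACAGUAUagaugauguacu

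For Mir144, 107 reads were counted in replicate 1 and 156 in replicate 2, or 24.7 and 35.5 CPM, well below either miR-101 gene in both libraries. The annotated miR-101b-3p has bases 2 to 7 in common with miR-582-5p, and Mir582 had 67 and 81 reads, or 15.5 and 18.4 CPM.

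RNA of Ezh2 was not measured here, so its sequence alone was examined. The longest annotated 3′ UTR of Ezh2 in M21, of 402 bases on chromosome 6, was searched on the transcript strand for the letters GTACTGT, the reverse complement of the miR-101a-3p seed, and TACTGTA, that of the miR-101b-3p seed as annotated. These motifs overlap by 6 bases and together form GTACTGTA. GTACTGT occurred 2 times and TACTGTA 1 time. Among 942 mouse 3′ UTRs within 10% of that length, 2.65% held GTACTGT, 2.34% held TACTGTA and 0.318% held GTACTGTA. The sites are printed with the matched letters in capitals, the first at chr6:47530469-47530493 and the second at chr6:47530414-47530438 (mm10, minus strand).
Ezh2 site 1: aggaaccttgaGTACTGTgggcaat
Ezh2 site 2: gaatttgcaaaGTACTGTAacagta

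The first site matches the annotated seed of miR-101a-3p alone, and the second matches both. Over 8 genes that have been reported as miR-101 targets, Ezh2 among them, GTACTGT was found in the longest 3′ UTR of 7, TACTGTA in 8 and GTACTGTA in 6. Over all 20966 mouse 3′ UTRs the shares were 9.40%, 12.2% and 2.93%, but several of the 8 are long. For UTRs of their lengths the shares ran up to 43.3%, 52.9% and 14.6%. The 8 were chosen as reported targets, so these counts are no test of the motifs. Such a match is a description of letters and shows no binding.

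Other miRNAs reported to target Ezh2 gave the setting for the levels of miR-101. Of 23 genes listed, 21 had a row. The miR-101 genes summed to 2653 and 2271 CPM in replicates 1 and 2, against 73715 and 80924 CPM for the 21. The highest was Mirlet7g, of the let-7 family that restrains proliferation, at 25690 ± 557 CPM (SD, n = 2). Mir26b, a relative of the miR-26a that acts on Ezh2 in mouse muscle cells, stood at 20975 ± 1526 CPM. Mirlet7i followed at 14922 ± 1891 CPM. Mir137, which forms a loop with Ezh2 in mouse neural stem cells, stood at 5207 ± 112.5 CPM. Mir214, known to act on Ezh2 in mouse muscle and abundant in mesenchyme, had 3547 ± 747 CPM, and Mirlet7d had 2775 ± 52.1 CPM.

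By mean level, 7 of the 21, Mir98 included, stood above Mir101b, 2 lay between the miR-101 genes and 12 lay below Mir101a. The split differed in each library. In replicate 1 it was 6, 1 and 14, with Mir98 below Mir101b, and in replicate 2 it was 7, 3 and 11. The levels of multi-copy members are uncertain, because reads that match several copies were left out. The 3 Mir124a genes, which give 1 mature miRNA, had 6 to 31 reads each. None of the 21 was 2-fold apart between the libraries, beside 8.81% of the 511 genes, a share at which a list of this size holds few such genes in any case. Their median log2 ratio was -0.13, beside -0.04 over all 511 genes, and the ratios ran from -0.43 for Mir214 to 0.90 for Mir124a-1, which had 11 reads in replicate 1 and 6 in replicate 2. Mir101a, at 0.91 on 2576 and 1388 reads, lay above that range.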

How the data were processed

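Small RNA from 2 pools of E12.5 forebrain was measured by microRNA sequencing. The authors deposited raw read counts for each gene, without normalisation. The notes that came with these files name mm10 and annotation M4. Which aligner, counter and trimming were used is not given in the sources used here. The columns for both strands, the gene strand and the opposite strand were told apart by their values. Rows without a gene stayed out of totals. In replicates 1 and 2, unmapped reads were 17.5% and 16.8% of each library, multiply matching reads 37.9% in both, and reads outside any feature 5.49% and 5.93%.

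CPM were computed over 4333194 and 4397107 gene-strand reads. Of 1973 genes, 1894 matched GENCODE M21, on the same build, by identifier without version. Intervals are exact Poisson or Clopper-Pearson at 95%, except that of the difference between the 2 log2 ratios. That one is an exact conditional interval of the odds ratio of the reads, also at 95%. All of them cover counting error alone. With 1 group of 2 libraries no contrast could be fitted, and no p-value is given. The fold step was tried on simulated counts with known changes and counting error alone, so it was not tried on spread between libraries. Gene members and lists were chosen with earlier results of these data known. Named genes were the members, their 3 neighbours on each side in level, the 3 most alike, the Ezh2 list and seed relatives. Alternatives covered scaling with edgeR 4.0.16 TMM and DESeq2 1.42.0 size factors in R 4.3.3, strand, filters, pseudocount and each replicate left out. Python 3.11.15, SciPy 1.17.1 and RNAfold 2.7.2 were used.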

Additional observations from a re-analysis of the deposited data

How the results depend on the processing

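The ratio of Mir101a between the libraries (log2 of replicate 1 over replicate 2) stayed between 0.90 and 0.96 under the 6 alternatives run, below 2-fold in each. That of Mir101b stayed between 0.06 and 0.12, the highest being 0.12 with TMM scaling, outside its counting interval. Mir101b stood at 1956 CPM without replicate 1 and 2058 CPM without replicate 2, and Mir101a at 316 and 594 CPM. The Mir101b share of miR-101 reads was 86.1% and 77.6% in those cases, so the level of Mir101a and the share rest on which pool is used. With the most abundant gene taken out of the library total Mir101b stood at 2298 CPM. Per 1000000 reads of a whole library, unassigned reads included, Mir101a stood at 178 and Mir101b at 787, by construction. The share of genes at least 2-fold apart, 8.81% or 45 of 511, was 3.33% (17 genes) with log2(CPM + 1), 2.73% (11 of 403) with at least 10 reads in each library, 15.5% of 652 genes with at least 1 read in each, and 23.3% (119 of 511) at 1.5-fold. Mir101a would be counted at 1.5-fold and Mir101b would not. No paired analysis was possible because there is 1 group. Counting error is small for both genes at this depth. Whether reads that matched several places include miR-101 reads cannot be read from the tables.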
